A study of Mus musculus with 2 samples.

Results

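CTCF binding inside the introns of very long genes was described in hindbrain tissue of newborn mice. The 4285 peaks described here belong to the optimal set of 62686 CTCF peaks, 61263 of them on chromosomes 1 to 19. Each has its summit inside a protein-coding gene of at least 300 kb, outside every annotated exon, more than 1 kb from any annotated start site and on a base that is not marked as repetitive sequence. The optimal set holds the peaks that passed the authors' irreproducible discovery rate procedure, which rates peaks by how well their ranks recur. How recurrence was judged for this set, between the 2 libraries or otherwise, is not known here. No measured value beyond the presence of a peak was used to choose these peaks.

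Chromatin bound by CTCF was immunoprecipitated with an antibody to CTCF and sequenced (ChIP-seq) in 2 libraries that form 1 group. Both came from B6NCrl mice at postnatal day 0, as pulverized hindbrains pooled from several dissections, and the sex was not collected. The labels give the libraries biological replicate numbers 1 and 2 but the same pooled biosample, and differences between the libraries may therefore be technical. There was no second condition, and the comparisons are between classes of peaks within the same libraries. The files hold peak positions and heights without read counts, so the depth is unknown here.

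CTCF is a zinc-finger protein that recognises a directional DNA motif. Cohesin extrudes chromatin loops and is held up by CTCF when it meets the protein from one side, so the bases of loops typically carry motifs that face each other. Very long mammalian genes consist almost entirely of intron, and many of them encode synaptic adhesion molecules, receptors, ion channels and regulators of neuronal gene expression.

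The sequences under the strongest peaks that carried a motif are printed first. Each line gives a match to the 14-base CTCF core consensus in capitals with 23 bases on either side in lower case, 5′ to 3′ on the strand of the match, from GRCm38 (mm10). They are the 10 strongest intronic peaks with a match of at most 2 mismatches on a single strand, 1 per host gene. A higher peak in Lsamp, with a signal of 501.5, is not printed because its best matches tied between the strands. Nor is a second peak in Gm20388, with a signal of 518, whose best match had 4 mismatches.
Gm20388, chr8:120319673-120319732, plus strand, exact match: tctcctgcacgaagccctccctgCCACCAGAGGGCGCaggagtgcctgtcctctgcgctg
Ksr2, chr5:117505317-117505376, plus strand, exact match: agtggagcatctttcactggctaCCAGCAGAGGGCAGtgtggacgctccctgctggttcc
Aff3, chr1:38185667-38185726, plus strand, exact match: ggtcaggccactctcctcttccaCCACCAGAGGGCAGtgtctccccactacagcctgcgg
Cdh23, chr10:60408050-60408109, plus strand, 1 mismatch: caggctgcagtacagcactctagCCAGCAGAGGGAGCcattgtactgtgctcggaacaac
Myo16, chr8:10438954-10439013, plus strand, 1 mismatch: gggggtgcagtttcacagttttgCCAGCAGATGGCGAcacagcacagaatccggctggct
Tenm2, chr11:36045807-36045866, plus strand, 1 mismatch: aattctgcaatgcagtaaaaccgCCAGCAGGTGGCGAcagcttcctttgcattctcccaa
Fgfr2, chr7:131882422-131882481, minus strand, exact match: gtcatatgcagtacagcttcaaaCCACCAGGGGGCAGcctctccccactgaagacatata
Palld, chr8:61539988-61540047, plus strand, 1 mismatch: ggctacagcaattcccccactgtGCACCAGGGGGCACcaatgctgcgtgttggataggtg
Ctnna3, chr10:64084562-64084621, plus strand, 1 mismatch: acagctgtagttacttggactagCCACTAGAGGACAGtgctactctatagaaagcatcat
Cacna1e, chr1:154786431-154786490, plus strand, 1 mismatch: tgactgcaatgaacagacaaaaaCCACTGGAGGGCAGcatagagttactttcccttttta

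The height of a peak is given by its deposited signal, a value on the peak caller's own scale. The peak in Ksr2, which encodes a scaffold of the Ras-MAPK cascade, had a signal of 549 in the optimal set, 302 in replicate 1 and 245 in replicate 2. Its summit at chr5:117505369 lay 91.4 kb from the 5′ end of the gene and only 0.12 kb from an exon. The peak in Aff3, a nuclear protein of the AF4/FMR2 family, had 534 in the optimal set, 284 in replicate 1 and 249 in replicate 2. In Tenm2, a teneurin that bridges synapses, the strongest peak had 511 in the optimal set, 285 in replicate 1 and 231 in replicate 2, and lay 1190 kb downstream of the 5′ end. The peak in Cdh23, a cadherin of the tip links of hair cells, had 516 in the optimal set, 299 in replicate 1 and 218 in replicate 2. These peaks were high in both libraries, and their ranks among all optimal peaks were 107 in Ksr2, 140 in Aff3, 234 in Tenm2 and 215 in Cdh23. The motif lay on the coding strand in Ksr2 and on the opposite strand in Aff3, Tenm2 and Cdh23.

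The highest intronic peak was in Gm20388, with a signal of 560 in the optimal set, 329 in replicate 1 and 236 in replicate 2. Gm20388 is an unusual host. Its annotated span of 4435 kb encloses 71 other coding genes, and 84 of its 200 peaks also lay inside one of them. Of these, 34 lay inside another coding gene of at least 300 kb, and they too are dropped where Gm20388 is left out. RefSeq has no gene that matched Gm20388. Fgfr2, a fibroblast growth factor receptor, is 2961 kb long in the annotation used and 104 kb in RefSeq, and 40 of its 84 peaks lay inside another coding gene. Densities and density ratios that moved beyond their interval without Gm20388 and Fgfr2 are also given without them. Gm37240, 1391 kb long and also without a RefSeq match, had 12 of its 24 peaks inside another coding gene. It was kept in those values.

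The 541 genes of at least 300 kb held 6099 optimal peaks on the autosomes. Of these, 711 were within 1 kb of a start site, 178 were in exons elsewhere, 925 were in introns on repetitive bases, and the remaining 4285 (70.3%) were the intronic peaks described here. The 4285 had a median signal of 71.4 and a motif in 63.8%, with a 95% Wilson interval of 62.3 to 65.2. The 925 on repetitive bases had a median signal of 46.4 and a motif in 76.9%, with an interval of 74.0 to 79.5. Peaks on non-repetitive intron were therefore higher, and carried a recognisable motif less often, than peaks on repetitive intron of the same genes.

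Measured per Mb of intron in which such a peak could be counted, CTCF peaks were sparser in very long genes than in shorter ones. Genes of at least 300 kb had 20.5 peaks per Mb of eligible intron (95% Poisson interval 19.9 to 21.1). Shorter genes had 33.6 per Mb (33.0 to 34.2), from 12689 peaks chosen in the same way. The ratio was 0.611, with an exact interval of 0.590 to 0.632. All intervals here cover counting error only and treat peaks as independent, although peaks of one gene share that gene. The density was lower with each step in gene length, at 41.1 per Mb in genes under 30 kb, 35.2 at 30 to 100 kb, 30.1 at 100 to 300 kb and 20.5 at 300 kb or more. Within the long genes it was 23.8 per Mb at 300 to 500 kb, 18.5 at 500 kb to 1 Mb and 18.2 at 1 Mb or more. Without Gm20388 and Fgfr2, genes of 1 Mb or more had 14.1 per Mb (13.05 to 15.2), under the 17.5 to 19.5 of genes of 500 kb to 1 Mb, and all genes of at least 300 kb had 19.6, a ratio of 0.583 to shorter genes. Non-repetitive intergenic sequence had 22.6 peaks per Mb (22.2 to 22.9), above the very long genes.

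**Figure D1:**
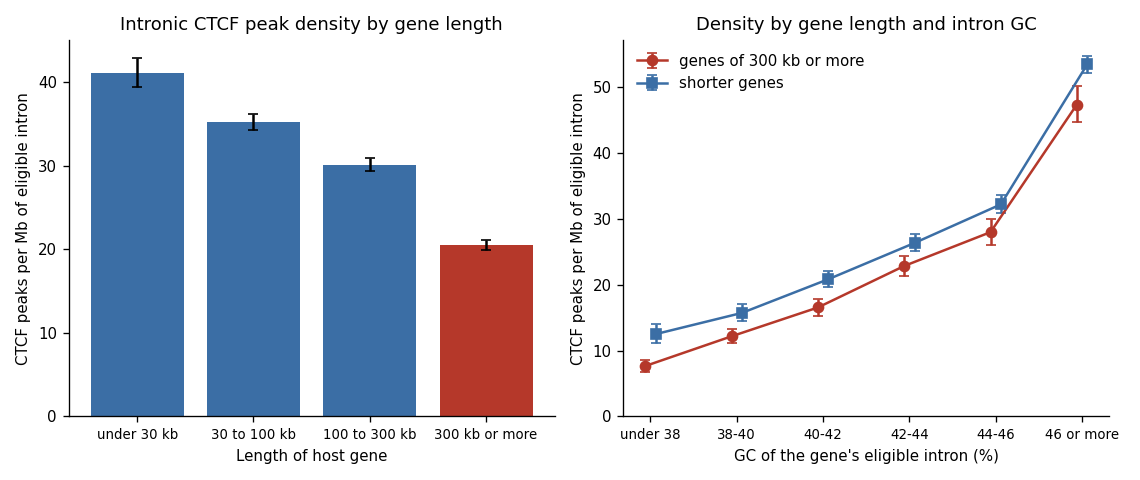
Intronic CTCF peaks per Mb of eligible intron, by the length of the host gene (left; red bar, genes of at least 300 kb) and by the GC percentage of the gene's eligible intron (right; red, genes of at least 300 kb; blue, shorter genes). Error bars are 95% Poisson intervals. Density falls from the shortest to the longest class on the left, and on the right the red points lie under the blue ones in all 6 GC classes, with the lowest ratio under 38% GC (0.613). Both panels include Gm20388 and Fgfr2, without which the long genes had 19.6 peaks per Mb in all and 44.1 in the highest GC class.

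Long genes have introns of lower GC content, and GC moved with peak density. Eligible intron of genes of at least 300 kb was 41.6% GC in all, and that of shorter genes 44.3%. With both sets divided by the GC of each gene's intron, long genes still had the lower density in all 6 classes. Under 38% GC they had 7.66 peaks per Mb, against 12.5 in shorter genes (ratio 0.613, 0.517 to 0.725). The ratios in the next classes were 0.774 at 38 to 40%, 0.794 at 40 to 42%, 0.867 at 42 to 44% and 0.869 at 44 to 46%. At 46% or more, long genes had 47.4 per Mb and shorter genes 53.5, a ratio of 0.886 (0.832 to 0.943). Without Gm20388 and Fgfr2, both in this class, the long genes had 44.1 per Mb and the ratio was 0.825 (0.768 to 0.885). Had each GC class of the long genes carried the density of the shorter genes, 5181 peaks would have been counted in place of 4285, a ratio of 0.827 (0.803 to 0.852), or 0.811 without both genes. Dividing by GC thus brought the ratio closer to 1 without reaching it. The lowest and highest classes are open-ended, and GC can still differ between the sets within a class.

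The supply of CTCF motifs differed more than their use, most clearly for exact matches and only narrowly at 2 mismatches. Eligible intron of the long genes held 2.09 exact matches per Mb, against 3.95 in shorter genes, a ratio of 0.528 (0.474 to 0.588). Of the 436 exact matches in long genes, 89.2% (86.0 to 91.8) lay at an optimal peak, and of the 1493 in shorter genes, 89.1% (87.4 to 90.6). The difference was 0.138 percentage points, with a Newcombe interval of -3.44 to 3.21, so no difference was detectable for the perfect motif. For matches of at most 1 mismatch, 38.4% were at a peak in long genes and 44.8% in shorter genes, a difference of -6.44 points (-8.23 to -4.64). With up to 2 mismatches, 7.72% were at a peak in long genes and 9.73% in shorter genes, a difference of -2.01 points (-2.34 to -1.67). Under both of these looser limits, which include the exact matches, motifs were occupied less often in very long genes. At 1 mismatch the ratio of long to shorter genes was 0.652 for supply and 0.856 for the share at a peak. At 2 mismatches, the limit used elsewhere here, it was 0.727 for supply and 0.794 for the share at a peak. Without Gm20388 and Fgfr2 the supply ratio was 0.628 at 1 mismatch and 0.707 at 2.

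Peaks of very long genes were also lower. Their median signal was 71.4 (67.6 to 75.1), against 88.1 (85.6 to 91.1) in shorter genes, and 14.4% of them (13.4 to 15.5) were among the 10000 highest optimal peaks, against 19.3% in shorter genes (18.6 to 20.02). Over all autosomal optimal peaks this share was 16.2%. Replicate 1 alone gave a median signal of 42.7 in long genes and 52.7 in shorter genes. Replicate 2 gave 29.4 in long genes and 35.6 in shorter genes, so the order was the same in each library.

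A motif was found within 50 bp of the summit in 2732 of the 4285 peaks, 63.8%, against 8502 of the 12689 peaks in shorter genes (interval 66.2 to 67.8%) and 65.3% of all autosomal optimal peaks. The difference from shorter genes was -3.25 percentage points (-4.91 to -1.60). With genes of at least 500 kb set against shorter ones it was -1.79 points with an interval that included 0 (-3.90 to 0.28). By gene length the motif share was 71.9% under 30 kb, 67.6% at 30 to 100 kb and 64.5% (63.3 to 65.8) at 100 to 300 kb. The share in very long genes was thus close to that at 100 to 300 kb. Windows of the same size 1 kb to the left and right of the summits of the long-gene peaks held a match in 2.36% and 2.08%. By decile of height in the optimal set, from lowest to highest, the share with a motif was 33.6%, 42.7%, 53.1%, 49.9%, 62.9%, 62.4%, 75.5%, 84.0%, 86.4% and 91.9%. It was higher in the upper deciles, with small dips at deciles 4 and 6.

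Peak height followed the quality of the motif. Peaks with an exact match had a median signal of 225 in very long genes and 274 in shorter genes. With 1 mismatch the medians were 134 in long genes and 161 in shorter genes, and with 2 mismatches 67.3 in long genes and 83.2 in shorter genes. At 3 mismatches, beyond the motif threshold, they were 46.5 in long genes and 49.4 in shorter genes. The lower height in long genes was therefore seen at each number of mismatches up to 3, while at 4 mismatches the medians were 39.3 in long genes and 36.7 in shorter genes. No interval was computed for these medians.

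Motifs of the long-gene peaks held a CpG dinucleotide, the target of DNA methylation in mammals, in 24.8% (23.2 to 26.5), against 29.1% (28.2 to 30.1) in shorter genes. The difference was -4.32 percentage points (-6.18 to -2.41). The Gm20388 match printed above holds a CpG near its end, whereas those of Ksr2, Aff3 and Fgfr2 hold none. Peaks with a CpG in the match had a median signal of 139 in long genes and 176 in shorter genes, and peaks without one 102 in long genes and 124 in shorter genes.

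Some of the flanks printed above hold the letters TGCAG upstream of the match, as in Cdh23, Myo16 and Fgfr2. TGCAG was searched on the strand of the match, within the 23 bases before and after it, where it cannot overlap the consensus. It stood before the match in 10.2% (9.08 to 11.4) of the 2686 stranded motifs in very long genes, and after it in 5.03% (4.26 to 5.92), a window of the same length. In shorter genes the shares were 10.3% before and 4.47% after. Over 5 equal groups of these long-gene peaks by signal, from lowest to highest, the share before the match was 10.6%, 11.4%, 8.75%, 6.70% (4.88 to 9.14) and 13.4% (10.8 to 16.6), with no steady course.

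The direction of the motif depended on where in the gene the peak lay. Of the 2686 stranded motifs in long genes, 1304 (48.5%, 46.7 to 50.4) were on the coding strand of the host, against 47.6% over intronic peaks of all coding genes. The other 46 motifs tied between strands. Each gene was then divided into 5 stretches of equal length, numbered 1 to 5 from its 5′ end. From stretch 1 to stretch 5, the share on the coding strand was 58.7% (54.5 to 62.8), 51.7%, 52.7%, 41.7% and 39.7% (36.0 to 43.6). Motifs near the 5′ end thus pointed mostly in the direction of transcription and motifs near the 3′ end mostly against it, that is, both ends pointed inward. In shorter genes the shares were 52.1%, 52.6%, 47.5%, 46.7% and 39.4% in the same order.

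The difference between stretch 1 and stretch 5 was 18.96 percentage points in very long genes (13.2 to 24.5) and 12.7 points in shorter genes (9.14 to 16.2). In stretch 1 the share in long genes exceeded that in shorter genes by 6.61 points (1.60 to 11.5), and in stretch 5 by 0.342 points (-4.04 to 4.81). Matches of the same consensus that lay away from peaks in the long genes showed no such course, with 46.6%, 46.4%, 47.6%, 48.5% and 48.2% on the coding strand from stretch 1 to stretch 5. By absolute distance, 59.8% (55.4 to 64.0) of motifs within 100 kb of the 5′ end were on the coding strand, against 37.3% (33.5 to 41.2) within 100 kb of the 3′ end. In genes of at least 500 kb stretch 1 had 60.7% (55.1 to 66.1) and stretch 5 had 45.95% (40.7 to 51.3), an interval that included 50%. Without Gm20388 and Fgfr2 stretch 1 had 57.7% and stretch 5 had 38.9%.

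**Figure D2:**
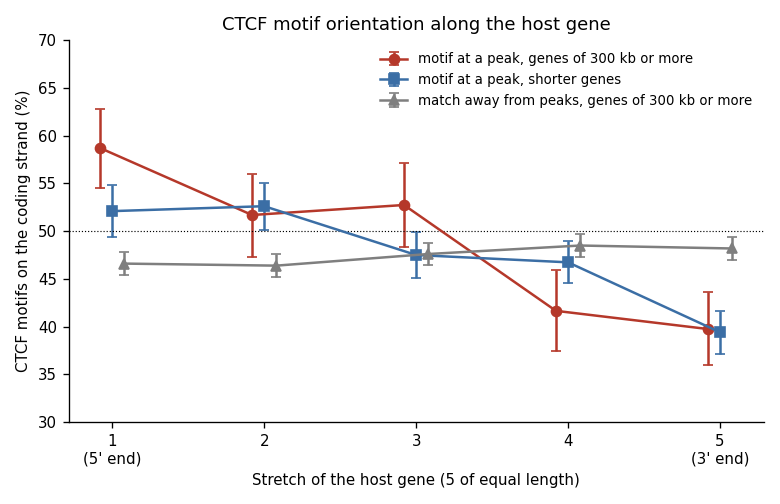
Percentage of CTCF motifs on the coding strand of the host gene in 5 stretches of equal length from the 5′ end to the 3′ end, with 95% Wilson intervals and a dotted line at 50%. Red circles are motifs at intronic peaks of genes of at least 300 kb, blue squares those of shorter genes and grey triangles matches away from peaks in the long genes. The red points lie at 58.7% in stretch 1 and 39.7% in stretch 5, while the grey ones stay between 46.4% and 48.5%.

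Height and direction were also set side by side. In stretch 5, motifs on the coding strand had a median signal of 123 and those against it 148. In stretch 1 the medians were 108 on the coding strand and 99.3 on the other. The ends therefore also differed in which direction had the higher median peaks, although no interval was computed for these medians. Shorter genes showed the same order, with 132 on the coding strand and 99.0 on the other in stretch 1. In stretch 5 of shorter genes the medians were 160 and 187. The widest gap in long genes was in stretch 2, with 130 on the coding strand and 99.3 on the other.

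Density along the gene was lowest in stretch 2 and highest in stretch 5. It was 20.8, 18.2, 19.4, 20.8 and 23.5 peaks per Mb from stretch 1 to stretch 5, and the ratio of stretch 1 to stretch 5 was 0.888 (0.809 to 0.974). Without Gm20388 and Fgfr2, stretch 1 had 19.3 per Mb (17.97 to 20.7) and the ratio was 0.841. In genes of at least 500 kb, Gm20388 and Fgfr2 included, that ratio was 0.954 with an interval that included 1 (0.840 to 1.08). By distance from the 5′ end, the stretch from 1 to 20 kb had 30.9 peaks per Mb (26.9 to 35.3) and the next, to 50 kb, 17.7 (15.3 to 20.4). Farther bins lay between 18.9 and 21.2, and the farthest, beyond 500 kb, had 19.8 per Mb, or 16.7 (15.6 to 17.9) without Gm20388 and Fgfr2. Peaks more than 1 kb past the start site were thus densest in the first 20 kb.

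Peaks of very long genes lay farther from exons than peaks of shorter genes. Distances were not measured for eligible intron without a peak, so whether peaks differ from it was not tested. The median distance from a summit to the nearest exon was 7.96 kb in very long genes and 1.67 kb in shorter genes, and 44.3% of peaks in long genes and 10.5% in shorter genes were more than 10 kb from any exon. Neighbours among the intronic peaks described here in one long gene were a median of 26.5 kb apart. Of 3769 such neighbours, 125 were less than 1 kb apart. The widest gap was 915 kb, in Erbb4, a receptor for neuregulins. CTCF peaks on repetitive bases, in exons or near start sites may lie within these gaps.

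Neighbouring motif-bearing peaks within a long gene changed their arrangement with distance. Neighbours here are consecutive intronic peaks of the kind described, each with a stranded motif. CTCF peaks on repetitive bases, in exons, near start sites or with tied strands may lie between them. Of 2184 such pairs, 513 faced each other (convergent, 23.5%, 21.8 to 25.3), 483 pointed apart (divergent, 22.1%) and 1188 pointed the same way (54.4%). The convergent share was 17.0% under 5 kb, 17.5% at 5 to 20 kb, 21.02% at 20 to 50 kb, 24.5% at 50 to 100 kb, 28.1% at 100 to 200 kb and 40.7% (34.3 to 47.3) over 200 kb. The divergent share ran the other way, with 26.5%, 29.7%, 23.8%, 17.1%, 16.7% and 14.95% over the same distances. Pairs of shorter genes had a convergent share of 19.4% under 5 kb and 36.1% (28.1 to 44.9) at 100 to 200 kb, where they numbered 122. Pairs and stretches use the same motifs, so they are not separate observations, and contacts between the sites were not measured here.

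**Figure D3:**
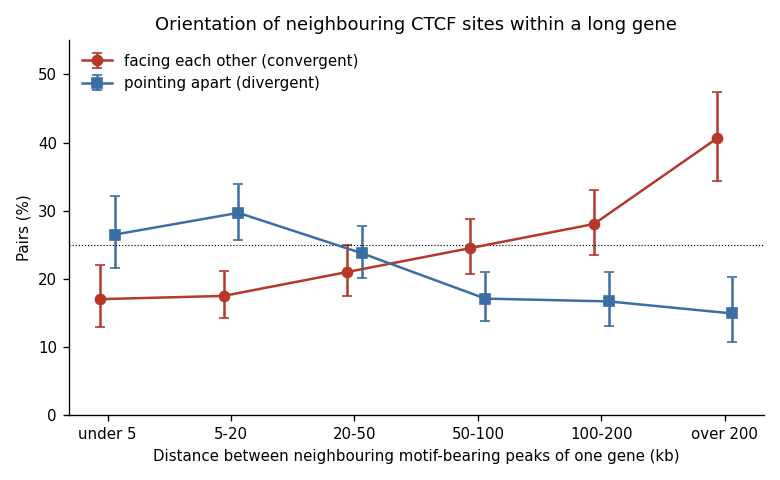
Percentage of neighbouring motif-bearing peaks in one gene of at least 300 kb that face each other (red circles) or point apart (blue squares), by the distance between them, with 95% Wilson intervals. The dotted line is 25%, the share that strands assigned evenly and independently would give. Of the kinds drawn, convergent pairs are the rarer under 5 kb (17.0%) and the commoner over 200 kb (40.7%). Pairs pointing the same way, not drawn, are 56.4% under 5 kb and 44.4% over 200 kb. Peaks on repetitive bases, in exons, near start sites or with tied strands are not counted as neighbours.

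The closest and the most distant convergent neighbours show the range of this arrangement. In Ptprn2, which encodes a protein of dense-core vesicles, 2 summits lay 0.2 kb apart. In Macrod2, a mono-ADP-ribosyl hydrolase, the summits were 1470 kb apart. None of the other intronic peaks described here with a stranded motif lay between them in this gene. CTCF peaks on repetitive bases, in exons, near start sites or with tied strands were not considered. The matches, in capitals and 5′ to 3′ on their own strands, are these.
Ptprn2 left, chr12:116648753-116648766, plus strand: CCAGCAGGGGGCAC
Ptprn2 right, chr12:116648937-116648950, minus strand: CTGGTAGGGGGCAC
Macrod2 left, chr2:140530374-140530387, plus strand: TCAGAAGATGGCAC
Macrod2 right, chr2:141999903-141999916, minus strand: CCAGTAGGAGGCAG
The left Ptprn2 peak was an exact match with a signal of 173, and the right one had 2 mismatches and a signal of 24.5. Both Macrod2 peaks were low, at 40.7 on the left and 31.98 on the right.

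Nearly every very long gene had at least 1 intronic CTCF peak. Of 537 long genes with eligible intron, 516 were hosts (96.1%), against 37.1% of all coding genes with eligible intron, most of which offer far less intron. Eligible intron was counted only for the longest coding gene holding it. Long genes such as Gse1 and Schip1, overlapped by longer ones, were therefore left with none. The median was 6 peaks per gene, with quartiles of 3 and 10, and 116 genes held at least 50% of the peaks. Density per gene had a median of 17.8 per Mb and quartiles of 9.99 and 29.0. Across the 537 genes, density went with intron GC with Spearman's rho 0.751 and with gene length with rho -0.191. Both are given as descriptions, since genes on one chromosome share their base composition and the same libraries.

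In the 179 genes of lowest intron GC there were 10.2 peaks per Mb, in the middle 179 18.3 and in the 179 of highest GC 34.4, or 32.4 (31.0 to 33.8) without Gm20388 and Fgfr2. Peak height ran the other way, with median signals of 81.8, 74.6 and 66.5 from low to high GC. So did the share with a motif, at 70.2%, 64.4% and 61.3%. GC-poor long genes thus had few peaks, and these were higher and more often on a recognisable motif.

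**Figure D4:**
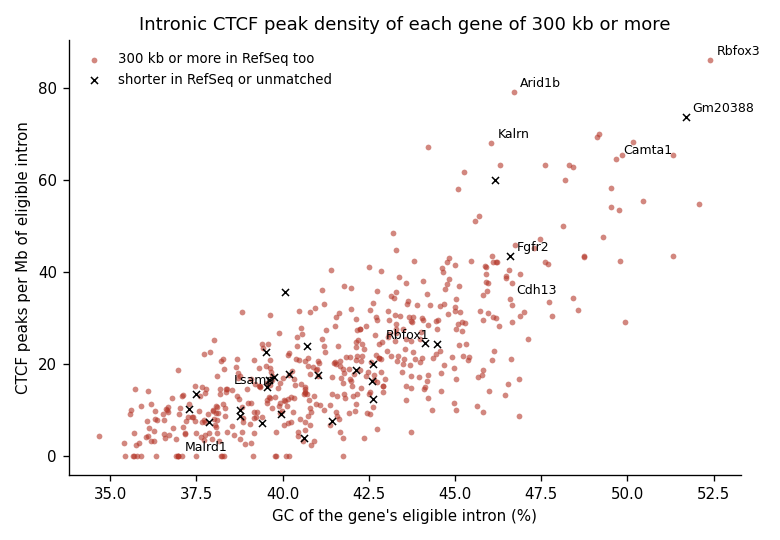
Intronic CTCF peaks per Mb of eligible intron (vertical) against the GC percentage of that intron (horizontal) for each of the 537 genes of at least 300 kb. Red points are genes that also reach 300 kb in RefSeq, and black crosses are shorter there or had no match. Density climbs with GC, from Malrd1 with no peak to Rbfox3 with 86.1 peaks per Mb.

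After Gm20388 and Fgfr2, the genes with most intronic peaks were Camta1 with 46, Nav2 with 32, Kalrn with 31, Rbfox1 and Rbfox3 with 29 each, Cdh13 with 27, and Asic2, Ptprn2 and the cadherin gene Cdh4 with 25 each. In Camta1, a calmodulin-binding transcription activator on chromosome 4, the signal ran from 8.35 through a median of 66.1 to 482. The same peaks ran from 6.14 to 288 in replicate 1 and from 4.77 to 210 in replicate 2. They spread over nearly the whole gene, from 1.34 to 925 kb from its 5′ end, with 11 motifs on the coding strand and 16 on the other. Kalrn encodes a guanine nucleotide exchange factor of dendritic spines, and its 31 peaks had a median signal of 79.3 and a highest of 408.

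The splicing regulators Rbfox1 and Rbfox3 held 29 peaks each in introns of very different extent. Rbfox3, which encodes the neuronal marker NeuN, had 86.1 peaks per Mb in 337 kb of eligible intron at 52.4% GC, the highest density of any gene with at least 100 kb. Rbfox1 had 24.4 per Mb in 1190 kb at 42.8% GC. Their median signals were close, 81.3 in Rbfox3 and 74.4 in Rbfox1, but 22 of the Rbfox1 peaks and 15 of the Rbfox3 peaks carried a motif. The highest Rbfox3 peak, at chr11:118738915-118739206, had a signal of 449.5 in the optimal set, 255 in replicate 1 and 193 in replicate 2.

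Cdh13 and Asic2, both over 1 Mb long, showed how motif direction can differ between hosts. Cdh13, which encodes T-cadherin, had 5 motifs on the coding strand and 14 on the other. Asic2, an acid-sensing ion channel, had 9 on each. Tenm2 had 2 on the coding strand and 9 on the other, while Lsamp, an IgLON adhesion molecule, had 10 on the coding strand and 4 on the other. Counts per gene are small, and no gene was tested by itself.

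**Figure D5:**
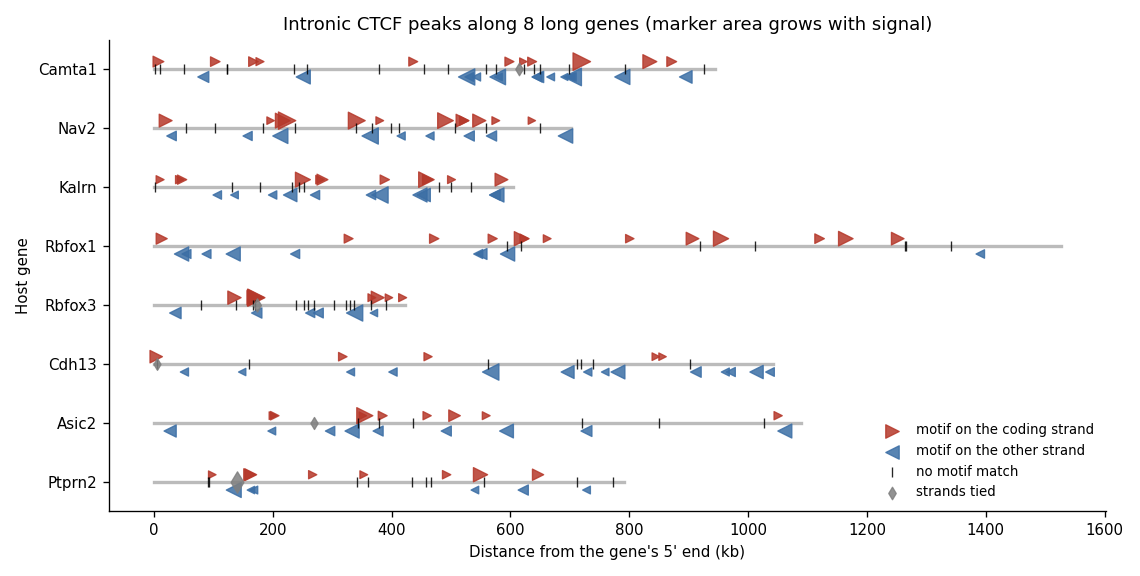
Intronic CTCF peaks along the 8 genes with most peaks among those of at least 300 kb in RefSeq too (Cdh4 tied with Asic2 and Ptprn2 at 25 peaks and, as the shortest of the 3, is not drawn), drawn by distance from the 5′ end in kb, with grey lines for the genes. Red triangles pointing right are motifs on the coding strand, blue triangles pointing left are motifs on the other strand, black ticks are peaks without a match and grey diamonds are ties, and marker area (ticks excepted) grows with signal. Cdh13 has 14 motifs pointing left and 5 pointing right, and Rbfox3 packs 29 peaks into the shortest of the 8 genes.

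The other densest hosts were Arid1b with 79.1 peaks per Mb, Ksr2 with 70.1 and Agap1 with 69.4. Arid1b encodes a subunit of the BAF chromatin remodelling complex and Agap1 an Arf GTPase-activating protein. Gm20388 had 73.7 per Mb. At the other end, 21 of the 536 genes with at least 100 kb of eligible intron had no such peak. The longest of these were Malrd1, Nkain3, Iqcm, Skint5 and Cpq, with 389, 419, 274, 273 and 251 kb of eligible intron at between 35.8 and 39.1% GC.

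Host genes were also described by function, in 8 lists. The share of hosts in each list is to be read against the 96.1% of all long genes, and no count lies more than 2 genes from it. Among 43 long genes for synaptic and neuronal adhesion, 41 had an intronic peak, and 13 lay above the median density of all long genes. Cdh13 had 34.1 peaks per Mb, Cdh4, a classical cadherin, 68.2 and Ntm, an IgLON molecule, 30.4, whereas Lsamp had 14.4. Cdh8 and Cntn6, a cadherin and a contactin, had none in 272 and 237 kb. The list's median density was 12.3 per Mb, against 17.8 for all long genes, and its median intron GC was 38.8%.

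Of 13 long genes for glutamate receptors, 12 had a peak and 3 were above the median density. Grik4, a kainate receptor subunit, had 31.7 per Mb, Grid1 21.3 and Grin2b, an NMDA receptor subunit, 17.1. Among 16 axon guidance genes, 15 had a peak and 6 were above the median. Ephb1, an ephrin receptor, had 37.5 per Mb, Plxna4, a semaphorin receptor, 28.2 and Slit3, a ligand of Robo receptors, 25.3, and the ephrin receptor gene Epha5 had none. Of 30 genes for ion channels and their partners, 29 had a peak and 15 were above the median, among them Cacna1c, an L-type calcium channel, with 31.3 per Mb and Dpp6, a partner of Kv4 channels, with 30.8. The potassium channel gene Kcnh7 had none in 332 kb.

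All 36 long genes for transcription regulators had a peak, 24 of them above the median density, and the list's median was 22.4 per Mb at a median GC of 43.6%. Camta1 had 64.5 per Mb, Rora, a nuclear receptor needed for Purkinje cells, 42.4, Auts2 29.5 and Zfhx3 18.6. Of 7 genes for RNA-binding proteins, all had a peak and 5 were above the median, with Msi2, a Musashi protein, at 43.4 and Rbms3 at 18.1. The median signal of the intronic peaks was lowest for transcription regulators, at 54.1, and highest for ion channels and their partners, at 97.9. The other lists lay between 59.3 and 73.8, and all 4285 peaks had 71.4. No interval was computed for the list medians. Median intron GC also differed between lists, from 38.8% for synaptic and neuronal adhesion through 40.6% for ion channels to 43.6% for transcription regulators, and its part in their densities was not tested.

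All 29 long genes for receptor phosphatases, neuregulin signalling and synaptic scaffolds were hosts, and 12 were above the median. Shank2, a postsynaptic scaffold, had 65.4 per Mb and Dlg2, another, 14.3 in 1262 kb. All 19 common fragile site and giant genes were hosts, with 6 above the median and a list median of 11.5 per Mb. Wwox had 32.9 per Mb and Csmd1 18.8.

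At the length threshold, the hosts just inside were Kcnq3, Pam and Nxph1, with 4, 7 and 4 intronic peaks. The genes just outside were Atp2b2, Akap13 and Jazf1, with 7, 5 and 15.

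Agreement between the libraries is described last. The choice of the optimal set may itself fix much of it, since the authors made that set from both libraries with the irreproducible discovery rate procedure. How far it does is unknown, because how recurrence was judged is not known here. In both 300000-peak lists, 99.5% of the 4285 were overlapped. Among the 62686 strongest peaks of each list, as many as the optimal set holds, 83.0% (81.8 to 84.1) were overlapped in both, against 84.6% in shorter genes. The conservative set, a stricter choice by the authors, overlapped 3737 of the 4285, or 87.2%, against 88.3% of peaks in shorter genes and 87.0% of all autosomal optimal peaks. Those it left out had a median signal of 24.6, and those it kept 88.2. Across the 4262 peaks found in both lists, Spearman's rho between the ranks of the libraries was 0.943. It is a description over peaks selected by that procedure and drawn from the same tissue pool.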

How the data were processed

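CTCF ChIP-seq peaks of 2 hindbrain libraries were used as the authors deposited them, in narrowPeak lists on mm10. Per the deposited file descriptions, each library's list came from its own alignments and a control, and the optimal and conservative sets from pooled and single lists. No aligner, caller or threshold is named in those sources, and control libraries were not used here. The deposited signal has no stated unit. The deposited IDR score and the deposited −log10 q-value were not used to rank peaks.

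Summits were placed on GRCm38 with GENCODE vM21, and a peak's host was the longest coding gene holding its summit. Repetitive bases are those soft-masked in the RefSeq copy of the assembly (33.5% of bases), which may differ from the mm10 masking of genome browsers. Eligible intron is sequence where a peak could have been counted. The core consensus was searched on both strands with at most 2 mismatches, wholly within 50 bp of the summit, and the best match gave the strand. Intervals are 95% Wilson (shares), exact Poisson (densities), exact binomial (ratios), Newcombe (differences) and order-statistic (medians). No p-values were computed. Printed sequences leave out chromosome 18. The search was tested on matches planted in simulated windows of A and T only. Of the intervals, only that of density ratios was tested, on independent simulated counts.

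The gene lists, the peaks and the comparisons were chosen with earlier results of these data known. Named genes are the hosts of the strongest peaks, the 10 with most peaks, the 5 densest and 5 sparsest, and, per list, up to 4 with most peaks and 3 without any. Cdh13, Asic2, Tenm2 and Lsamp were picked for motif direction, Erbb4 and Macrod2 for distance, after their values were seen. Some genes that this rule names are not reported here. Python 3.11.15, numpy 2.4.6, pandas 2.3.3 and scipy 1.17.1 were used.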

Additional observations from a re-analysis of the deposited data

How the results depend on the processing

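Of 134 values under alternatives, 114 moved by less than the interval of the reported value and 20 moved further, none reversing a called direction. The density ratio of very long to shorter genes, reported as 0.611, was 0.545 in the strongest 31343 optimal peaks, 0.648 for genes of at least 200 kb, 0.578 for 500 kb and 0.563 with repetitive bases kept. It was 0.585 for genes of 300 kb in RefSeq too and 0.583 without Gm20388 and Fgfr2, both added after seeing the data. The values given here for genes of at least 500 kb include Gm20388 and Fgfr2. The ratio of median signals (0.810) was 0.911 in the strongest 31343, 0.858 at 500 kb and 0.866 with repetitive bases kept. The motif share was 35.4% with 1 mismatch, 85.5% with 3, 56.0% within 25 bp, 65.5% within 100 bp, 66.1% with repetitive bases kept and 79.6% in the strongest 31343. The coding-strand share was 51.1% at 500 kb, with an interval that, like that of the reported 48.5%, included 50%, and in the last of 5 stretches, a result added after seeing the data, 45.95%. The convergent share was 21.45% in the strongest 31343. Hosts were 88.5% in the strongest 31343 and 97.7% at 500 kb. Ranking by either library alone moved nothing beyond its interval, nor did the conservative set, a start site distance of 2.5 kb or merging summits under 150 bp apart, which changed no value. No paired analysis was possible because there is only 1 group. Unknown depth limits what can be said of weak sites.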
